A study of Mus musculus with 8 samples.

Results

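The 10 genes described here make, bind, degrade or respond to retinoic acid: the synthesis enzymes Aldh1a1, Aldh1a2 and Aldh1a3, the degradation enzymes Cyp26a1 and Cyp26b1, the binding proteins Crabp1 and Crabp2, and the receptors Rara, Rarb and Rarg. They were found on the arrays through the RefSeq accession of each probe, which gave 12 probes out of 55681. Rara and Rarb had a pair of probes each and every other gene had 1. All 12 probes passed the filter on dim probes, and 11 of them were well above background in the sample channel on all 8 arrays.

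RNA came from nephron progenitor cells, the stem-like cells of the cap mesenchyme that form the nephrons, sorted for green fluorescence from kidneys of C57BL/6 mouse embryos at embryonic day 15.5. Both groups carried the Six2CreEGFP transgene, in which the Six2 promoter drives a Cre recombinase fused to the fluorescent protein. Wildtype pools were HDAC1&2+/+ and mutant pools HDAC1&2f/f, so that Cre acts on the genes of the histone deacetylases Hdac1 and Hdac2 in the sorted cells of the mutants. Each of 4 wildtype and 4 mutant pools was labelled with Cy5 and set against Cy3-labelled RNA of wildtype pool 1 on a whole-genome oligonucleotide array with a pair of colours, so the wildtype 1 array held 1 RNA in both dyes. Values below are log2 ratios of Cy5 over Cy3, and differences are mutant minus wildtype on that scale. Within a group, the arrays of pools 3 and 4 were as close as repeat labellings of a single RNA, and the pair was counted as 1 sample, which left 3 samples per group. Nothing in the labels says whether pools share animals or litters, so the p-values measure only the spread between these samples.

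Retinoic acid is made from vitamin A: retinol is oxidised to retinaldehyde, and the Aldh1a enzymes turn retinaldehyde into retinoic acid. It enters the nucleus bound to Crabp2 and activates receptors of the Rar family, which sit on DNA paired with a retinoid X receptor. Without ligand these receptors hold co-repressor complexes that contain histone deacetylases. The Cyp26 enzymes oxidise and so remove retinoic acid. In the embryonic kidney, stromal cells around the cap mesenchyme make retinoic acid with Aldh1a2, and receptors in the ureteric bud respond by keeping the growth factor receptor gene Ret active.

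Promoter sequences from RefSeq (GRCm38.p6) were given for 8 of the 10 genes, all but Aldh1a3 and Crabp2, as 13 windows of 300 bases around a transcript start. They were searched on both strands for a DR5 retinoic acid response element, which is a pair of half-sites in direct repeat with 5 bases between them. The half-site AGGTCA was allowed, as was AGTTCA, and so was GGGTCA and equally the form GGTTCA. The element was found in Rarb and Cyp26a1, both textbook targets of retinoic acid, and not in these windows of the other 6 genes. It was rare: 32 of 32851 windows of this length held it (0.0974%). The 120 bases before the start are shown for both genes, with the element in capitals. In Rarb it spans bases 53 to 37 before the start and reads in the direction of the gene; in Cyp26a1 it spans bases 32 to 16 and reads on the opposite strand.
Rarb, chr14:16575477-16575596, minus strand: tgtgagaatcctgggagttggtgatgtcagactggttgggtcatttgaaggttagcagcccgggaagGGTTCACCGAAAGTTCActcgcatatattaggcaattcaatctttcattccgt
Cyp26a1, chr19:37697688-37697807, plus strand: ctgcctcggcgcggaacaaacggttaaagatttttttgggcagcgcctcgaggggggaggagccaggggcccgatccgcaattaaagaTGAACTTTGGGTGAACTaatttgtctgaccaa
Read 5′ to 3′ as the repeat runs, the Cyp26a1 element is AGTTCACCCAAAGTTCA. It differs from the Rarb element at 2 of 17 positions, G1A and G9C, counted from 1 at the 5′ end with the Rarb base first. A match is a description of the letters and not evidence that a receptor binds there.

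None of the 10 genes passed the test between the groups. By the brightest probe of each, 9 of 10 had a higher mutant mean, against 50.4% of all genes. Rara, Rarg and Crabp1 turned lower when arrays were centred on spike-ins, which moved the median of all genes to -0.19. Aldh1a3, Crabp2 and Cyp26b1 had the largest differences, at 1.89-fold, 1.66-fold and 1.55-fold. Cyp26a1 was the 1 member with a lower mutant mean. By their brightest probes the receptors differed by 1.14-fold for Rara, 1.16-fold for Rarb and 1.11-fold for Rarg. When pool number entered the fit as a replicate block, so that each mutant sample is set against the wildtype sample of its number, Aldh1a3 rose and the other 9 genes did not pass.

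The test was limma on log2 ratios with Benjamini-Hochberg adjustment over 22694 genes. Of these, 14989 had a gene symbol and the others were transcripts or probes without one. Over the 22694, 8 genes passed (0.0353%), 4 in each direction (0.0176% and 0.0176%). With the block 34 genes passed (0.150%). Over 30364 probes 8 passed (0.0263%), and 35 with the block (0.115%). At an unadjusted p under 0.05, 3 members read higher and 1 lower, where 4.45% and 2.78% of all genes did. With the block these were 5 and 1, against 7.77% and 4.89%. The groups did not overlap for 5 members with higher mutant values and 1 with lower ones; over all genes with a value in every sample the shares were 8.72% and 5.94%. All 3 pairs of same-numbered samples gave a higher mutant value for 7 members and a lower one for 1, against 23.0% and 17.4% of genes. The median difference of the 10 members was 0.28, and that of all genes was 0.0016. The smallest two-sided p that exact permutation of 3 and 3 samples allows is 0.1, and each of the 6 genes whose groups did not overlap had it.

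**Figure D1:**
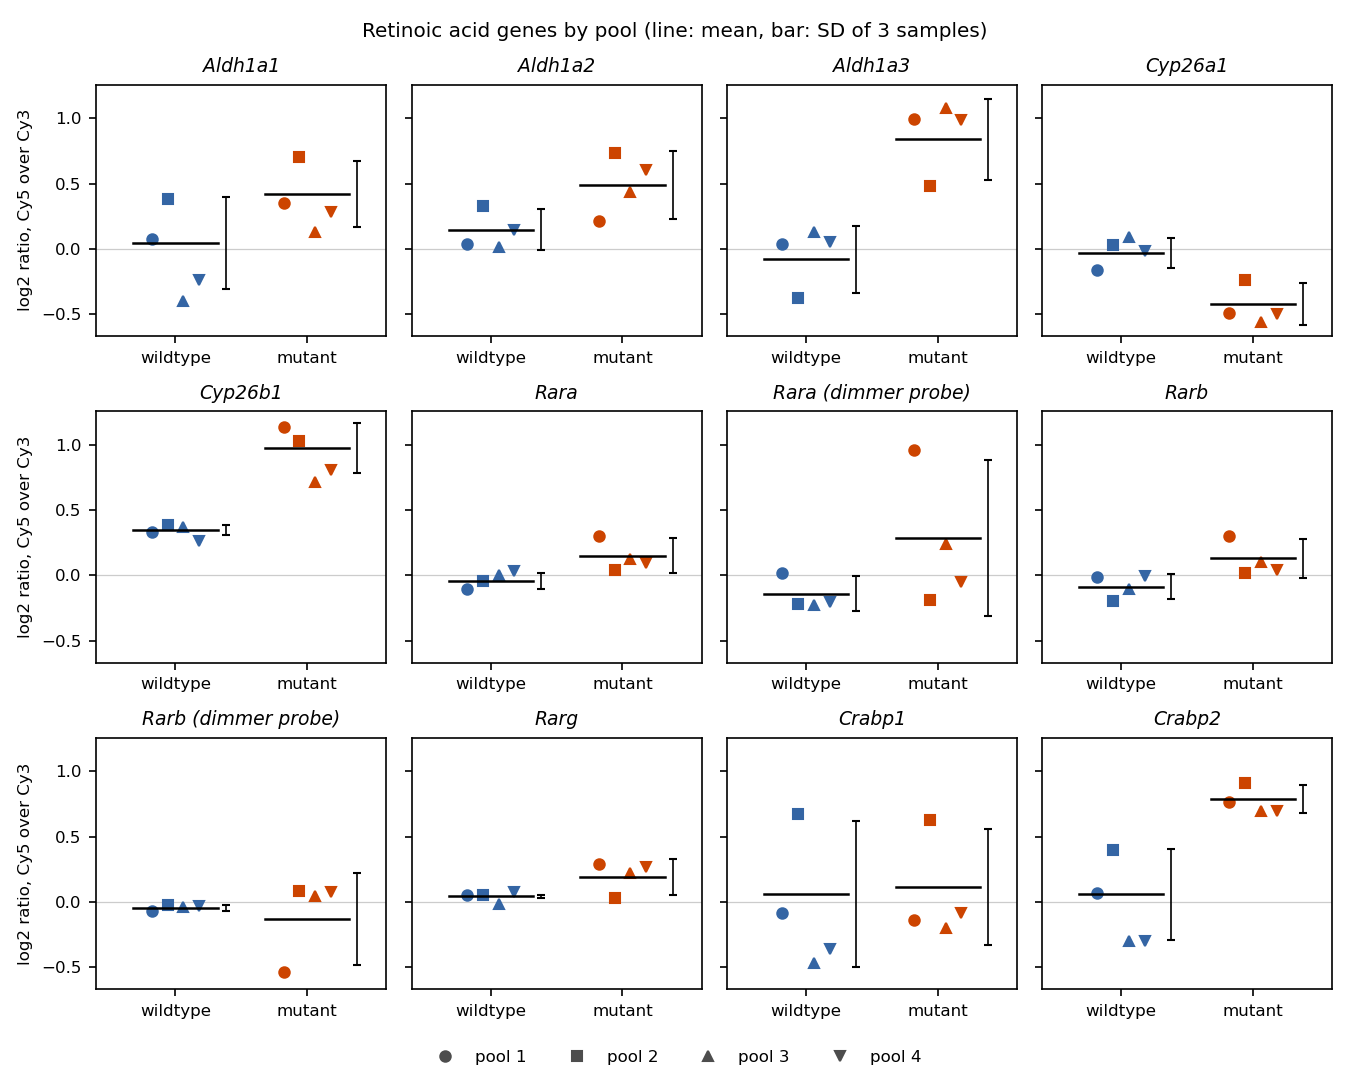
Log2 ratio of Cy5 over Cy3 (vertical axis) for each of the 12 probes in 4 wildtype (blue) and 4 mutant (orange) pools, with marker shape giving the pool number, a line at the mean and a bar of 1 SD over the 3 samples per group. All mutant pools lie above all wildtype pools for Aldh1a3, Cyp26b1, Crabp2 and, by narrow gaps, the brighter probes of Rara and Rarb, and all lie below for Cyp26a1.

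Among the synthesis enzymes Aldh1a3 stood out. It makes retinoic acid in epithelia, in the kidney chiefly in the ureteric bud. Its log2 ratios were 0.039, -0.38, 0.13 and 0.055 in wildtype pools 1 to 4 and 1.00, 0.48, 1.08 and 0.98 in the mutant pools. Every mutant pool was above every wildtype pool, and pool 2 was the lowest of its group in both. Wildtype samples averaged -0.081 ± 0.26 and mutant samples 0.84 ± 0.31 (SD, n = 3), a difference of 0.92 ± 0.19 (SE, 95% confidence interval 0.46 to 1.37; adjusted p = 0.292 in limma). Within pairs the difference was 0.96 (pool 1), 0.86 (pool 2) and 0.94 (the sample of pools 3 and 4), a narrower range than that of the samples of either group. The blocked SE was 0.083 and the adjusted p 0.0495, just under the threshold. Adjusted over all 30364 probes the blocked limma fit gave 0.0615, and without any 1 of the pairs the gene did not pass (adjusted p from 0.0833 to 0.421, difference 0.90 to 0.95).

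Aldh1a2, the main enzyme of the embryo and a product of kidney stroma, read 0.036, 0.33, 0.015 and 0.14 in wildtype pools 1 to 4. The mutant pools read 0.21, 0.73, 0.44 and 0.60. The lowest mutant pool lay within the wildtype range, so the groups overlapped, but each mutant sample was above the wildtype sample of its number. The difference was 0.34 ± 0.16 (SE, interval -0.029 to 0.71; adjusted p = 0.735 in limma). Aldh1a1, which serves the eye and adult tissues, spread widely among wildtype pools, at 0.074, 0.38, -0.40 and -0.24. Its mutant pools read 0.35, 0.70, 0.13 and 0.29, which overlaps the wildtype range. Pool 2 was the highest and pools 3 and 4 the lowest in both groups. The difference was 0.38 ± 0.21 (SE, interval -0.11 to 0.86; adjusted p = 0.78 in limma), and the pairs differed by 0.28, 0.32 and 0.53. With the block the intervals of Aldh1a2 (0.099 to 0.58) and Aldh1a1 (0.14 to 0.61) lay above 0, but their adjusted p-values were 0.272 and 0.235 in limma.

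The degradation enzymes differed in opposite directions. Cyp26b1, which clears retinoic acid in mesenchyme, read 0.33, 0.39, 0.37 and 0.27 in the wildtype pools. The wildtype 1 array, with 1 RNA in both dyes, thus read 0.33 and not 0, and the other wildtype arrays read close to it. The mutant pools read 1.14, 1.03, 0.71 and 0.81, all above the wildtype pools. The difference was 0.63 ± 0.12 (SE, interval 0.35 to 0.91; adjusted p = 0.24 in limma, 0.116 with the block).

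Cyp26a1, the enzyme induced most directly by retinoic acid and one of the genes with the element shown above, read -0.16, 0.028, 0.089 and -0.015 in the wildtype pools. The mutant pools read -0.49, -0.23, -0.56 and -0.50, below every wildtype pool. The difference was -0.39 ± 0.12 (SE, interval -0.67 to -0.10; adjusted p = 0.494 in limma), or 76.6% of the wildtype level. The probe was well above background on 4 of 4 wildtype and 3 of 4 mutant arrays. Its difference ranged with the signal used, from -0.19 with Cy5 levels alone to -0.64 with a normexp offset of 10 and -1.18 with the scanner's processed signals, in none of which it passed.

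The binding proteins also parted. Crabp2, which delivers retinoic acid to the receptors, read 0.070, 0.40, -0.29 and -0.29 in wildtype pools 1 to 4. The mutant pools read 0.77, 0.91, 0.70 and 0.69, above every wildtype pool and closer together. The means were 0.059 ± 0.35 and 0.79 ± 0.11 (SD, n = 3), a difference of 0.73 ± 0.18 (SE, interval 0.31 to 1.15; adjusted p = 0.349 in limma, 0.113 with the block). Crabp1, which holds retinoic acid in the cytoplasm, read -0.085, 0.68, -0.47 and -0.36 in wildtype pools and -0.14, 0.63, -0.20 and -0.086 in mutant pools. The groups covered nearly the same range, and pool 2 was far above the other pools in both. The difference was 0.056 ± 0.32 (SE, interval -0.70 to 0.81; adjusted p = 0.975 in limma); with the block the interval was -0.21 to 0.32.

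The receptors had narrow ranges at their brighter probes. Rara read -0.10, -0.045, 0.00034 and 0.031 in wildtype and 0.30, 0.042, 0.12 and 0.097 in mutant pools, a difference of 0.19 ± 0.10 (SE, interval -0.053 to 0.44; adjusted p = 0.775 in limma). Rarb, the receptor gene with the element shown above, read -0.0090, -0.19, -0.10 and -0.0067 in wildtype and 0.30, 0.017, 0.10 and 0.045 in mutant pools. Its difference was 0.22 ± 0.11 (SE, interval -0.053 to 0.48; adjusted p = 0.765 in limma). For both genes the mutant 1 pool was the highest, and the samples of the groups did not overlap. Rarg, which has a single probe, read 0.051, 0.054, -0.013 and 0.074 in wildtype and 0.29, 0.035, 0.22 and 0.27 in mutant pools. Its mutant 2 pool lay within the wildtype range, and the difference was 0.15 ± 0.10 (SE, interval -0.096 to 0.39; adjusted p = 0.816 in limma). At these probes the intervals of the 3 receptors leave room for differences up to 0.48, so equal levels were not shown.

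The dimmer probes of Rara and Rarb gave other values than the brighter ones, most of all on the mutant 1 array. The dimmer Rara probe read 0.96 on mutant 1 and -0.19, 0.24 and -0.048 on mutant 2 to 4, with wildtype pools from -0.23 to 0.019. Its difference was 0.43 ± 0.28 (SE, interval -0.23 to 1.08) and 0.092 without mutant replicate 1. The dimmer Rarb probe read -0.53 on mutant 1 and 0.086, 0.044 and 0.077 on mutant 2 to 4, with wildtype pools from -0.071 to -0.025. Its difference was -0.086 ± 0.17 (SE) and 0.12 without mutant replicate 1, so its direction rested on that array. Probes of one gene had a median SD of 0.245 on mutant 1, against 0.0826 to 0.142 on the other arrays.

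**Figure D2:**
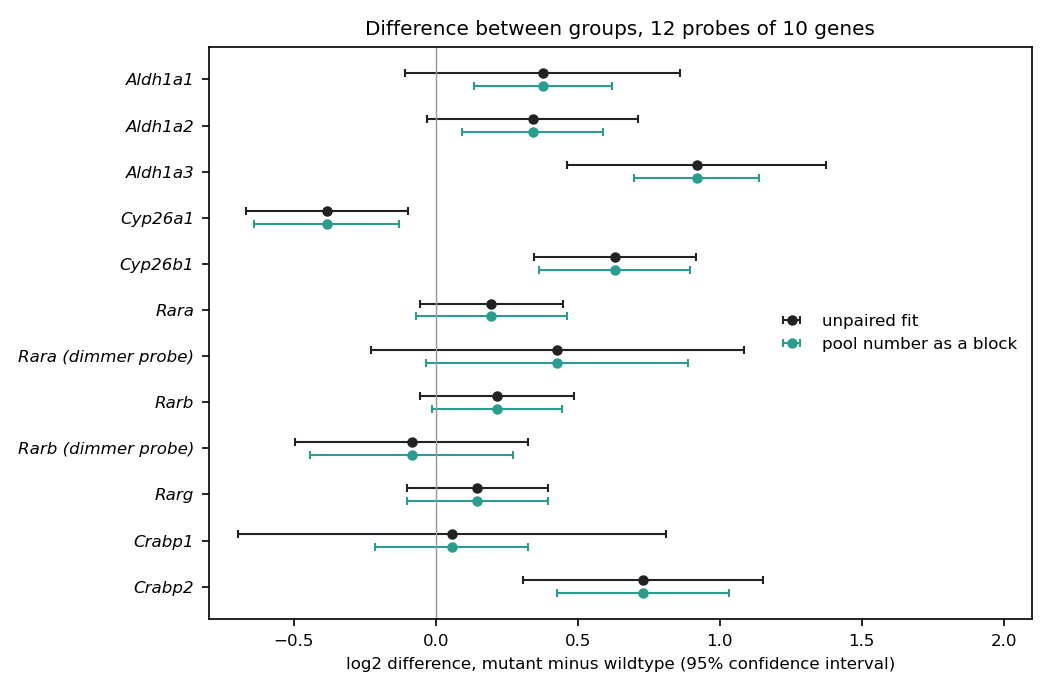
Log2 difference, mutant minus wildtype (horizontal axis), with 95% confidence intervals for the 12 probes, from fits over 30364 probes without (black) and with (green) the pool number as a block, 3 samples per group. The block narrows the intervals most for Aldh1a1, Aldh1a3 and Crabp1, whose values shift together in same-numbered pools.

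Members also differed between pools of one group, in several cases alike in both groups. Pool 2 was set against the mean of the other 2 samples of its group. Crabp1 was higher in pool 2 by 0.92 in wildtype and 0.77 in mutant cells, Aldh1a1 by 0.50 and 0.42, Crabp2 by 0.51 and 0.18, and Aldh1a2 by 0.27 and 0.37. Aldh1a3 was lower in pool 2, by -0.44 and -0.53, and Cyp26b1 hardly shifted, at 0.061 and 0.077. Cyp26a1 shifted by 0.092 and 0.28 and Rarb by -0.16 and -0.17. Rara (-0.0015 and -0.16) and Rarg (0.013 and -0.24) shifted in mutant cells but hardly in wildtype cells. The mutant sample of Rara farthest from the others was pool 1, at 0.22, and not pool 2. The marker lists shifted too: the median over 6 proximal tubule genes was -2.08 and -1.69, over 14 stroma genes -0.17 and -0.47, and over 11 ureteric bud and collecting duct genes -0.21 and -0.31. Over 9 nephron progenitor genes it was 0.13 and 0.17. The stroma genes did not shift alike. Foxd1 read 0.48 in wildtype pool 2, against 0.013 in pool 1 and -0.29 in pools 3 and 4. In mutant cells it read 0.93 in pool 2, against 0.37 and 0.33. Acta2, also on the stroma list, read -1.04 in wildtype pool 2, against 0.027 and 0.64. In mutant cells it read -1.26 in pool 2, against 0.29 and 0.58. The part of cell makeup in the members' shift was not tested, and in pooled cells fewer cells of a type and less RNA per cell cannot be told apart.

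**Figure D3:**
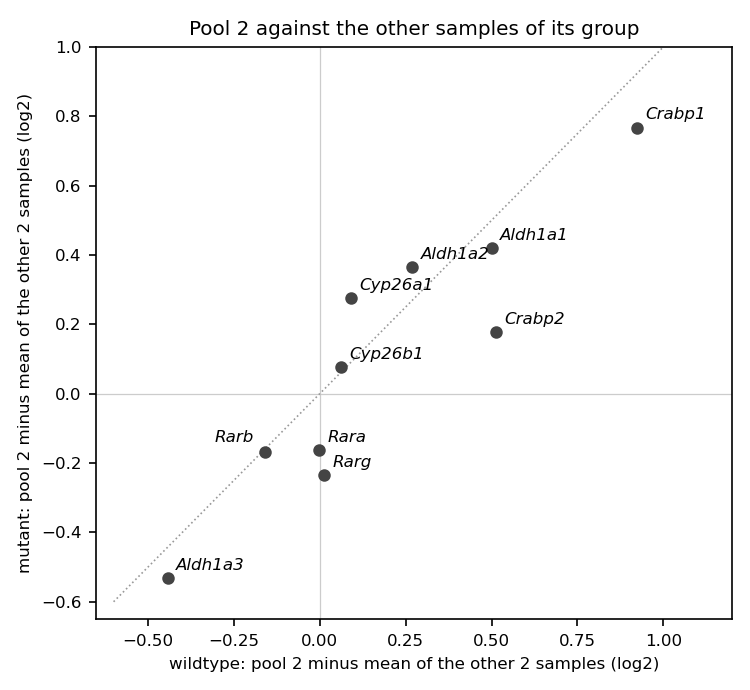
Pool 2 minus the mean of the other 2 samples of its group, on the log2 scale, in wildtype (horizontal) and mutant (vertical) cells, 1 point per member; the dotted line marks equal values. Crabp1 lies farthest up, at 0.92 and 0.77, and Aldh1a3 farthest down, at -0.44 and -0.53.

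Other genes of the pathway were followed through lists written from textbook knowledge. Of 23 genes of vitamin A uptake, storage and oxidation, 16 were tested and 0 passed in either direction, with or without the block; the median difference was 0.071. Dhrs3, a reductase that returns retinaldehyde to retinol and is itself induced by retinoic acid, differed by 0.34 ± 0.099 (SE; adjusted p = 0.47 in limma). Its groups did not overlap, with mutant samples higher. Ttr, a blood carrier protein that takes part in vitamin A transport, differed by -0.40 ± 0.16 but was well above background on only 3 wildtype and 2 mutant arrays; it was -0.63 with a normexp offset of 10 and -1.30 with processed signals. Cyp1b1, a cytochrome that can oxidise retinoids, differed by -0.37 ± 0.18. Among the 7 genes not tested were Cyp26c1, the third degradation enzyme, and Lrat, which stores retinol as esters; each was well above background on 1 wildtype and 0 mutant arrays.

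Of 20 receptor partners, co-repressors and co-activators, all were tested and 0 passed; 10 had a higher and 10 a lower mutant mean, and the median was 0.0047. The co-activator genes Ncoa1 and Ncoa3 differed by 0.45 ± 0.20 and 0.44 ± 0.22 (SE), and Hdac3, a deacetylase found in co-repressor complexes, by 0.37 ± 0.26. The Hdac3 pairs differed unevenly, by 0.82 (pool 1), 0.26 (pool 2) and 0.019 (pools 3 and 4). With samples left out its difference fell as low as 0.059. Fabp5, a fatty acid carrier that can also bind retinoic acid, differed by -0.30 ± 0.11 and its groups did not overlap.

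The list of 26 textbook targets of retinoic acid had 23 genes tested and 0 passed, with a median of 0.21. The mutant mean was higher for 17 and lower for 6, where 50.4% of all genes had a higher one. The groups did not overlap for 8 genes with higher mutant values and 1 with lower ones, where the shares over all genes were 8.72% and 5.94%. Ret differed by 0.66 ± 0.23 (SE; adjusted p = 0.581 in limma) and the repressor gene Zfp703 by 0.52 ± 0.18. Gbx2, a homeobox gene, is among the 17 and the 8 but passed the filter only through the mutant group, being well above background on 1 wildtype and 4 mutant arrays. Its difference has no firm size: it was 0.74, 1.37 with a normexp offset of 10 and 3.07 with processed signals. Dhrs3, Stra6 and Cyp26c1 are among the genes that stand on this list and on the uptake list, Ret is also a ureteric bud marker and Meis1 a stroma marker. Of the 31 genes with the element of Rarb and Cyp26a1 in a given promoter window, 7 were tested. These were the members Rarb and Cyp26a1, and Blvrb, Cfap45, Hbb-y, Ppbp and Tnfsf13b. The mutant mean was higher for 6 and lower for 1, Cyp26a1, where 50.4% of all genes had a higher one. None passed. Their median was 0.30, the value of Blvrb, with a range from -0.39 to 0.40, and Hbb-y had a difference of 0.16 ± 0.63 (SE). The median of 11859 tested genes with a given window was 0.0029.

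**Figure D4:**
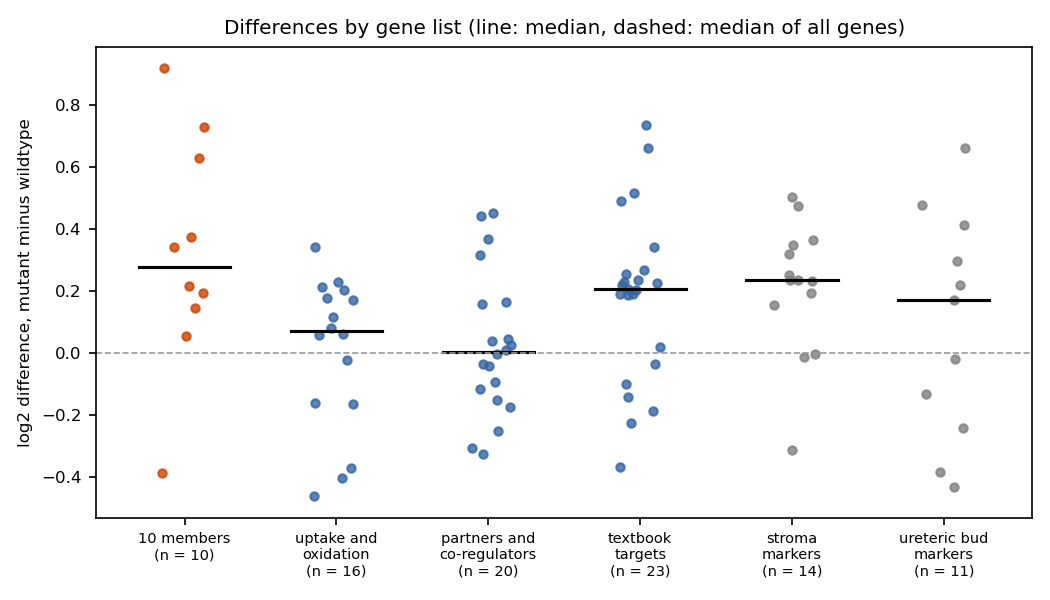
Log2 difference, mutant minus wildtype (vertical axis), 1 point per gene, for the 10 members (orange), the retinoic acid lists (blue) and stroma and ureteric bud markers (grey); lines mark list medians and the dashed line the median of all genes. The textbook targets have a median of 0.21 and the stroma markers 0.24, and the partners and co-regulators lie around 0.

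Markers of other kidney cells, among them those that make or receive retinoic acid, were set beside these values. The median difference was 0.24 over 14 stroma markers, 11 of them with a higher mutant mean, and 0.17 over 11 ureteric bud and collecting duct markers, 6 of them higher and 5 lower; 0 passed on either list. Centred on spike-ins, which moved the median of all genes to -0.19, these medians were 0.039 and -0.023. With samples left out they ranged from 0.15 to 0.42 and from 0.13 to 0.29. All 25 were well above background on every array. The mean log2 ratio over the stroma list ranged from -0.19 to 0.13 in wildtype and from -0.085 to 0.44 in mutant samples, and that over the ureteric bud list from -0.29 to 0.13 and from -0.29 to 0.28. Foxd1, the transcription factor that defines the stroma, differed by 0.48 ± 0.24 (SE; adjusted p = 0.755 in limma). The collagen genes Col1a1 and Col1a2 differed by 0.50 ± 0.18 and 0.24 ± 0.17, and the ureteric bud genes Krt18 and Hoxb7 by 0.30 ± 0.17 and -0.13 ± 0.098. Over 9 nephron progenitor markers the median was -0.18, from -0.31 to -0.079 with samples left out and -0.37 centred on spike-ins, and Six2 differed by -0.13 ± 0.14. On that list 1 gene passed, named here after its values were seen: Cited1, a transcriptional co-regulator of uncommitted progenitors, fell to 15.1% of wildtype, a difference of -2.72 ± 0.13 (SE; limma adjusted p = 0.00283). The median was 0.23 over 9 endothelial markers and -0.29 over 8 renal vesicle markers. It was -0.73 over 6 podocyte markers and -1.36 over 6 proximal tubule markers, with 0 passing on these 4 lists in the unpaired fit. With the block 1 proximal tubule marker passed, lower in the mutants. With samples left out the podocyte median ranged from -1.01 to -0.52 and the proximal tubule median from -1.90 to -0.68. The median was -0.015 over 5 macrophage and leukocyte markers and 0.040 over 4 erythroid markers, again with 0 passing. The part of these cells in the values of Aldh1a2, Aldh1a3, Ret and the others was not tested.

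The deleted genes had lower mutant means without passing the test. By their brightest probes they were at 81.4% of wildtype for Hdac1 and 91.4% for Hdac2 (higher with Cy5 levels alone). For Hdac1 the groups did not overlap. For Hdac2 they overlapped, and the pairs differed by -0.46 (pool 1), 0.14 (pool 2) and -0.065 (pools 3 and 4). With samples left out the Hdac2 difference ranged from -0.25 to -0.0043. The dimmer Hdac1 probes read 75.7% and 67.4% of wildtype, also without passing. Whether these probes lie in the floxed part was not analysed here. The Cy5 signal was well above background for 28150 to 33982 of 55681 probes on 7 arrays, and for 48627 on wildtype 2. Without wildtype replicate 2 the Aldh1a3 difference was 0.77, and over all samples left out in turn it ranged from 0.77 to 1.10.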

How the data were processed

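The authors deposited scanner files with linear intensity per spot, extracted with Agilent Feature Extraction 10.7.3.1 according to the submitters' processing notes. A value table they deposited holds log10 ratios of Cy5 over Cy3. Its columns correlated with the log10 ratios of the scanner files at 0.999999 or above, with medians of 0 on 7 arrays and 0.00483 on wildtype 2.

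Median spot signals were background-corrected (normexp, offset 50) and normalized by loess within arrays in limma 3.58.1 (R 4.3.3), with control and outlier spots left out. Replicate spots were averaged. The filter kept 30364 probes whose Cy5 signal was flagged well above background on 3 or more of the 4 arrays in a group. Accessions without version were matched to a RefSeq table of GRCm38.p6 (27509 probes), used for names and promoters only, as the array files name another build. The brightest probe stood for a gene, giving 22694 genes. Of these, 14989 had a matched symbol, and the others were counted by the transcript or probe name on the array. The test was limma's lmFit and eBayes, two-sided, with a threshold of 0.05, tested on simulated data. Array signals give no molecule counts, so precision rests on how many arrays there are.

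Between log2 levels of 10 and 12, the median absolute Cy5 difference between pools 3 and 4 was 0.0564 (wildtype) and 0.0604 (mutant). Cy3, one RNA, differed by 0.0455 to 0.0784 between arrays without wildtype 2, and other Cy5 pairs by 0.109 to 0.355. Among these other Cy5 pairs, those with mutant 1 differed by 0.298 to 0.355 and those without it by 0.109 to 0.165. Deviations of same-numbered samples from their group means correlated at r = 0.496, 0.543 and 0.527. Between differently numbered samples of the groups r ranged from -0.455 to -0.0779. Deviations within a group cancel out, so negative values here go with the positive ones by construction and add no separate evidence. Because of the same-numbered values pool number was used as a block in an alternative fit, on the evidence of these same data and not of a label. The main fit was unpaired. All arrays came from 1 slide and 1 scan. The slide row cannot be told apart from the group.

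The members and lists were chosen with earlier results of these data known. Named were all members, and per retinoic acid list the genes called, the 3 with the largest difference in one direction in all pairs, and the 2 brightest; of marker lists the 2 brightest, given here for stroma and ureteric bud only; and Hdac1, Hdac2, Six2 and Foxd1. Of these, 2 list genes are not reported here. Alternatives changed background, normalization, filter, probes, samples, block and variance model.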

Additional observations from a re-analysis of the deposited data

How the results depend on the processing

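Under 26 alternatives Aldh1a1, Aldh1a2, Aldh1a3, Cyp26b1, Crabp2 and Rarb kept a higher mutant mean and Cyp26a1 a lower one, and the number of members called stayed 0 in 23. It was 1 with the replicate block (Aldh1a3), 3 with 8 arrays as separate samples and 4 with both; the textbook targets had 1 and 2 calls in the latter settings. Those settings take near-identical pools for separate samples. Genes called over all genes, 8 in the main setting, numbered 34 with the replicate block, 257 with 8 arrays, 743 with both, 5 when centred on spike-ins, 1 with Cy5 levels alone, 5 with a trended and robust variance, and from 1 to 10 with samples left out in turn; without single pairs the blocked fit called from 0 to 46. The unblocked fit called 4 without wildtype replicate 1 and 4 without wildtype replicate 2, 1 when wildtype pools 3 and 4 were left out together and 3 when mutant pools 3 and 4 were.

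Centring on spike-ins moved the median of all genes to -0.19. Rara (-0.0012), Rarg (-0.050) and Crabp1 (-0.14) then had lower mutant means, the median of the members was 0.082, and the list medians were -0.12 for uptake, -0.19 for partners and 0.013 for targets; relative to all genes the members' median was 0.28. Cy5 levels alone moved all genes to 0.11, uptake to 0.21, partners to 0.077 and Hdac2 to 0.16. The members' median was 0.33 with the mean of all probes, and from 0.23 to 0.40 with samples left out. The uptake median was 0.17 with processed signals and with the value table, and -0.0091 with no filter. It was from -0.0023 to 0.13 with samples left out and -0.016 in the blocked fit without pair 2; the partners' median was from -0.043 to 0.015 with samples left out. Crabp1 ranged from -0.20 to 0.36 with samples left out and the dimmer Rarb probe from -0.19 to 0.12. In the blocked fit without one pair, Crabp1 reached -0.052, Hdac2 0.036 and the dimmer Rarb probe 0.10. The cause of these changes was not tested. Signal near background limits Cyp26a1, Gbx2 and Ttr.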
